A study of Mus musculus with 21 samples.

Results

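The cytosolic ribosomal protein genes of mouse fibroblasts were followed through loss of the transcription factor Prrx1 in 3 fibroblast types. Members were chosen by symbol and by depth. A gene entered when its symbol was Rpl, Rps or Rplp followed by a number and at most one of the letters a, x or l, and when it had at least 100 counts in every one of the 21 cultures. This left 75 of the 81 genes with such a symbol, among 24447 genes listed in all 3 count tables. Of the 75 genes, 46 encode proteins of the large (60S) subunit and 29 encode proteins of the small (40S) subunit. The count minimum is a measured value, so the levels that it selected on are given as a description. The group was also put forward with the changes of these genes already known. A gene near 0 counts in any group could not become a member, whatever its level elsewhere.

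The mouse embryonic fibroblasts (MEF) came from WT embryos or from embryos of Prrx1 knock-in mutant mice (129S-Prrx1tm1Jfm/Mmmh) at embryonic days 10 to 13. The knock-in places LacZ within the Prrx1 homeodomain. Another group of MEF carried a CRISPR/Cas9 deletion of Prrx1 made with an sgRNA (sgPrrx1 MEF). Wound-healing fibroblasts, from dorsal wounds of mice at day 10, and MMTV-CAF, cancer-associated fibroblasts of MMTV-PyMT breast tumors, each gave a WT and an sgPrrx1 group. That makes 7 groups of 3 cultures. All fibroblasts, controls included, had been immortalized with human papillomavirus oncogenes and grown in DMEM with 10% serum. The labels give the strain as C57BL/6 for MEF and wound-healing fibroblasts and FVB/NJ for MMTV-CAF. The stock name of the mutant mice carries another strain, and the paper describes these mice as backcrossed to the labeled one. The part of any remaining strain background in the comparisons with mutant MEF was not tested. The control guide sgNS is named as WT, and whether the WT MEF set beside the mutant embryos also carried it is not given in the sources used here. Whether the 3 cultures of a group came from separate animals, clones or transductions is not given either, so a p-value measures only the spread between these cultures, which may be technical.

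Cytosolic ribosomes make almost all proteins of the cell. The small subunit reads the mRNA, and the large subunit joins amino acids and lets the new chain out through an exit tunnel. Each ribosomal protein is needed in about equal number, and proteins made in excess of their partners are degraded. Mouse ribosomal protein genes are scattered over the genome, here on 19 chromosomes with 4 genes on the X. Many of their mRNAs start with a run of pyrimidines, the terminal oligopyrimidine (TOP) motif, through which mTOR and LARP1 control translation. Processed copies of these genes are common in mammalian genomes, and a read that matches a gene and its copy equally well cannot be placed.

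Sequences were compared for a gene, its copy and a paralog. The coding sequences of Rps27 (chr3:90212667-90213648 in GRCm38.p6) and of its copy Rps27rt (chr9:114982366-114982739) were compared over 255 bases in the Gencode M1 transcripts, and 0 bases differed. The paralog Rps27l differed from them at 61 bases, an identity of 76.1%, and shared no identical stretch longer than 11 bases. The sequence of Rps27, which is also that of Rps27rt, is given here with that of Rps27l, the differing bases in capitals. By coding sequence alone, reads of Rps27 and Rps27rt could not be told apart, and those of Rps27l could. Bases outside the coding sequence were not compared.
Rps27: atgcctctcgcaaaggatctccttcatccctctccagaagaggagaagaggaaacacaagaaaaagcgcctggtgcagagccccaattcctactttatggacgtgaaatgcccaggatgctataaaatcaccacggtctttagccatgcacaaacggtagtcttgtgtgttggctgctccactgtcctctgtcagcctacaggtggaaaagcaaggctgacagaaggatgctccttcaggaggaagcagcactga
Rps27l: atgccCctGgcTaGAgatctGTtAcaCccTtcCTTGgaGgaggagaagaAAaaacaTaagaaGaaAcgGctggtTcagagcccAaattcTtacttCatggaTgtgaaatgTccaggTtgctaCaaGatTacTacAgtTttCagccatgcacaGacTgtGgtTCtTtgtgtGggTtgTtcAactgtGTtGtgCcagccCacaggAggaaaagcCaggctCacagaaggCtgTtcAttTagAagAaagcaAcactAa

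A TOP-like run was searched for around RefSeq start sites of GRCm38.p6, the assembly behind mm10. The search asked for C followed by at least 6 further C or T on the gene's strand, overlapping the 10 bases on either side of any listed start. The run was found in 30 of the 55 members with a listed start (54.5%), against 18.3% of 17493 listed genes. Windows of 30 bases around the start are printed with the run in capitals for members whose changes are described later, 5 with the run and 3 without it.
Rpl7a, chr2:26910792-26910821, plus strand: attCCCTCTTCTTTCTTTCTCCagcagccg
Rpl19, chr11:98026909-98026938, plus strand: tgggCTCTCCCCTTCgcagataatgggcgg
Rpl35a, chr16:33056467-33056496, plus strand: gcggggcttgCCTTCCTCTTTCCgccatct
Rps6, chr4:86857353-86857382, minus strand: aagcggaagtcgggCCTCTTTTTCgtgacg
Rplp2, chr7:141447636-141447665, plus strand: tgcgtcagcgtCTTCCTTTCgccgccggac
Rps3, chr7:99483695-99483724, minus strand: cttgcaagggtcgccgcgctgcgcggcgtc
Rps15, chr10:80292416-80292445, plus strand: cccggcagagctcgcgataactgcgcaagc
Rps28, chr17:33824548-33824577, minus strand: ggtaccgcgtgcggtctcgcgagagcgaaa

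Members with the run and members without it changed over overlapping ranges in each comparison with WT. Their median log2 fold changes were 0.21 and 0.04 in mutant MEF, 0.42 and 0.32 in sgPrrx1 MEF, -0.19 and -0.22 in sgPrrx1 wound-healing fibroblasts, and 0.15 and 0.04 in sgPrrx1 MMTV-CAF. The run is a match of letters, and no match says only that these letters are missing from the window.

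Each culture held between 69588655 and 134790440 counts. Prrx1 itself was lower in every culture of each loss group than in its WT cultures, but was still read in all of them. It was at 172 ± 13.8 counts per 1000000 counts of a culture (CPM, SD, n = 3) in WT MEF, 22.2 ± 4.29 in mutant MEF and 112.5 ± 23.5 in sgPrrx1 MEF. Its log2 fold changes against WT, by edgeR's quasi-likelihood test, were -3.04 in mutant MEF and -0.60 in sgPrrx1 MEF (adjusted p = 6.82e-06 and 0.0145). They were -1.07 in MMTV-CAF and -1.18 in wound-healing fibroblasts (adjusted p = 7.22e-10 and 1.72e-09). A guide can disrupt a protein and leave its mRNA, so the transcript checks the labels only in part. Of 9 fibroblast markers, 7 to 9 had at least 10 counts in each culture, and their summed level was lower in every loss group, for example 3489 to 3513 CPM in sgPrrx1 against 8180 to 8404 CPM in WT wound-healing fibroblasts. Summed epithelial and immune markers stayed at or under 13.5 and 3.09 CPM. Endothelial markers were at 286 to 294 CPM in WT and 151 to 156 CPM in sgPrrx1 wound-healing fibroblasts, from 1 or 2 of 4 markers with at least 10 counts, while Pecam1 was at 0 in each of these cultures. The part of these marker shifts in the results was not tested.

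The share of all counts held by the 75 genes differed between fibroblast types, with no overlap between the WT cultures of any pair. It was 6.23%, 6.25% and 5.97% in the WT MEF cultures, 10.3%, 10.5% and 9.96% in WT wound-healing fibroblasts and 4.18%, 4.21% and 4.14% in WT MMTV-CAF. In sgPrrx1 MEF it was 7.36%, 7.18% and 6.58%, each above the WT cultures, and the mean was 14.5% higher. In mutant MEF it was 5.38%, 5.95% and 6.23%, which overlaps WT. In sgPrrx1 wound-healing fibroblasts it was 9.69%, 9.74% and 9.88%, each below the WT cultures, a change of the mean of -4.68%. There the large-subunit share changed by -6.42% without overlap, and the small-subunit share by -1.87% with overlap. In sgPrrx1 MMTV-CAF the share of the 75 genes was 4.84%, 4.80% and 4.83%, each above WT, with a mean 15.5% higher, or 6.25% higher when the 20 largest genes of each culture were left out of the total. A share is relative to the other RNA of the culture, so less ribosomal protein mRNA and more of other mRNA cannot be told apart. No p is given for a sum over genes chosen with results known.

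**Figure D1:**
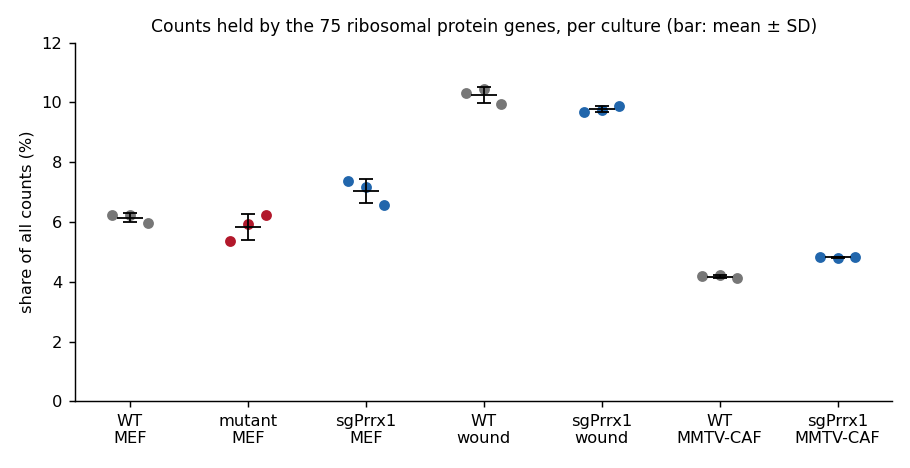
Share of all counts held by the 75 ribosomal protein genes (y axis, percent) in each culture (points) of the 7 groups (x axis), with the mean and SD of 3 cultures as bars. The sgPrrx1 points lie above WT in MEF and MMTV-CAF and below WT in wound-healing fibroblasts, and those of mutant MEF overlap WT.

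Single genes differed widely between the WT cells. Of the 75 genes, 74 were lower in every WT MMTV-CAF culture than in every WT wound-healing culture, with a median ratio of 0.389, and 62 were higher in every WT wound-healing culture than in every WT MEF culture, with a median ratio of 2.05. Of 14972 genes, 41.8% were so lower in the first pair and 41.5% so higher in the second. Rps25, a protein of the 40S head, was at 97.1 to 103 CPM in WT MEF, 1115 to 1156 CPM in wound-healing fibroblasts and 290.5 to 307 CPM in MMTV-CAF. Rps18, also of the 40S head and named after its values were seen, was at 1587 to 2023 CPM in WT MEF, 2531 to 2666 CPM in wound-healing fibroblasts and 237.5 to 245 CPM in MMTV-CAF. Rps28, which lies beside the path of the mRNA, ran the other way between the first pair, at 895 to 1954 CPM in WT MEF and 559 to 729 CPM in wound-healing fibroblasts. Fibroblast type cannot be told apart from source here, nor, for MMTV-CAF, from strain, and these levels are described without a test.

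In mutant MEF the ribosomal protein genes moved in both directions. Against WT MEF, 13 members were lower and 22 higher at an adjusted p under 0.05, where 30.5% of all genes tested were lower and 29.4% higher. The share of members that were higher was 29.3%, near the background. The mean log2 fold change over the 75 genes was 0.07, with single genes between -1.27 and 1.52. It was 0.0317 without mutant culture 3, 0.0996 without mutant culture 1 and 0.151 under library totals. Counts depended on the cultures kept: 6 members stayed lower and 14 higher in all 6 fits that each left out a culture. Without culture 3 of mutant MEF, 20 members were lower, and without culture 2 of WT MEF, 14 were higher. In CPM, 15 members were lower in every mutant culture than in every WT culture and 28 were higher, where 31% of all genes tested were so lower and 36.9% higher.

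Rpl31, a protein at the rim of the exit tunnel, was at 1430, 1478 and 1496 CPM in WT MEF and at 569, 725 and 768 CPM in mutant MEF. The groups were far apart, with a log2 fold change of -1.18 ± 0.13 (SE, adjusted p = 0.000349, edgeR). Rps28 was at 1954, 1598 and 895 CPM in WT and 405, 649 and 904 CPM in mutant MEF (-1.27 ± 0.39, adjusted p = 0.0252). The highest mutant culture of Rps28 was above the lowest WT culture. Rplp1, part of the stalk that recruits elongation factors, was at 5073, 5143 and 3992 CPM in WT and 1542, 2806 and 3546 CPM in mutant MEF (-0.93 ± 0.31, adjusted p = 0.0342), again with a wide spread among mutant cultures. The stalk base Rplp0 was at 5012, 4984 and 4795 CPM in WT and 3037, 3717 and 4231 CPM in mutant MEF (-0.51 ± 0.15, adjusted p = 0.0196), while Rplp2 was not past the threshold (0.08 ± 0.26). These falls leaned on single cultures. Rps28 missed the threshold without WT culture 1 or 2 (adjusted p = 0.0815 and 0.0641, edgeR) or mutant culture 1 or 2 (0.0596 and 0.0704). Without WT culture 1, WT culture 2 or mutant culture 2, the adjusted p was 0.0905, 0.0897 and 0.0757 for Rplp1 and 0.0595, 0.0627 and 0.0588 for Rplp0.

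Among the genes higher in mutant MEF, Rpl34 of the large subunit had the largest change. Its counts over all cultures, 747 to 7221, stood beside 2992 to 89469 of a listed copy, Rpl34-ps1, treated below. It was at 10.9, 10.1 and 13.5 CPM in WT and 34.7, 39.0 and 30.8 CPM in mutant MEF (1.52 ± 0.13, adjusted p = 8.61e-05, edgeR), with no overlap. Rps25 was at 100.0, 97.1 and 103 CPM in WT and 387.5, 219 and 150.4 CPM in mutant MEF (1.24 ± 0.30, adjusted p = 0.0102), so the mutant cultures themselves differed 2.58-fold. Rps27l, a paralog that p53 is known to induce, was at 41.1, 44.9 and 60.1 CPM in WT and 152, 114 and 92.7 CPM in mutant MEF (1.21 ± 0.19, adjusted p = 0.00154). Rps6, the target of the S6 kinases, went down, from 873.5, 917 and 923 CPM in WT to 704, 699 and 767 CPM in mutant MEF (-0.41 ± 0.08, adjusted p = 0.00519).

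In sgPrrx1 MEF the changes that passed the test were all rises. Against the same WT cultures, 42 members were higher and 0 lower, where 20.3% of all genes tested were higher and 22.8% lower. The 42 are 56.0% of the members, with 28 of 46 large-subunit and 14 of 29 small-subunit genes. The mean log2 fold change was 0.35, a fold of 1.27, and 66 of 75 genes were above 0. Among 359 other genes at or above the members' lower-quartile level, 98 were higher and 74 lower. In all 6 fits that each left out a culture, 32 members stayed higher. In CPM, 48 members were higher in every sgPrrx1 culture than in every WT culture and 1 was lower, where 23% of all genes tested were so higher and 31.1% lower. Lower members numbered 0 by edgeR, 2 (Rps28 and Rplp1) at an unadjusted p under 0.05, and 1 by DESeq2. Without WT culture 3 both passed the test (adjusted p = 0.011 and 0.0462, edgeR), and without sgPrrx1 culture 1 Rplp1 did (0.0107).

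Rps27a, made as a fusion with ubiquitin, rose most. It was at 148, 187 and 279 CPM in WT MEF and 385, 495.5 and 506.5 CPM in sgPrrx1 MEF (1.20 ± 0.21, adjusted p = 0.0044, edgeR). Rps7, a 40S protein that can bind Mdm2, was at 134.8, 149.7 and 210 CPM in WT and 287, 323 and 363 CPM in sgPrrx1 MEF (0.996 ± 0.15, adjusted p = 0.00246). Rpl35a, a large-subunit protein mutated in some patients with Diamond-Blackfan anemia, was at 133.5, 161 and 209 CPM in WT and 267, 308 and 332 CPM in sgPrrx1 MEF (0.87 ± 0.15, adjusted p = 0.00362). For these genes the lowest loss culture was above the highest WT culture, and culture 3 was the highest of WT. Rpl11, which carries the 5S rRNA with Rpl5 and can bind Mdm2, was at 322.5, 366 and 396 CPM in WT and 529.5, 603 and 620 CPM in sgPrrx1 MEF (0.71 ± 0.08, adjusted p = 0.000819). Its partner Rpl5 was not past the threshold (0.02 ± 0.12, and -0.02 under upper-quartile scaling). The mutant and sgPrrx1 comparisons share the WT cultures, and no overlap of their calls is given. Side by side, mutant and sgPrrx1 changes were 0.91 and 1.20 for Rps27a, 0.41 and 0.996 for Rps7, 0.97 and 0.87 for Rpl35a, and -1.18 and 0.64 for Rpl31.

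**Figure D2:**
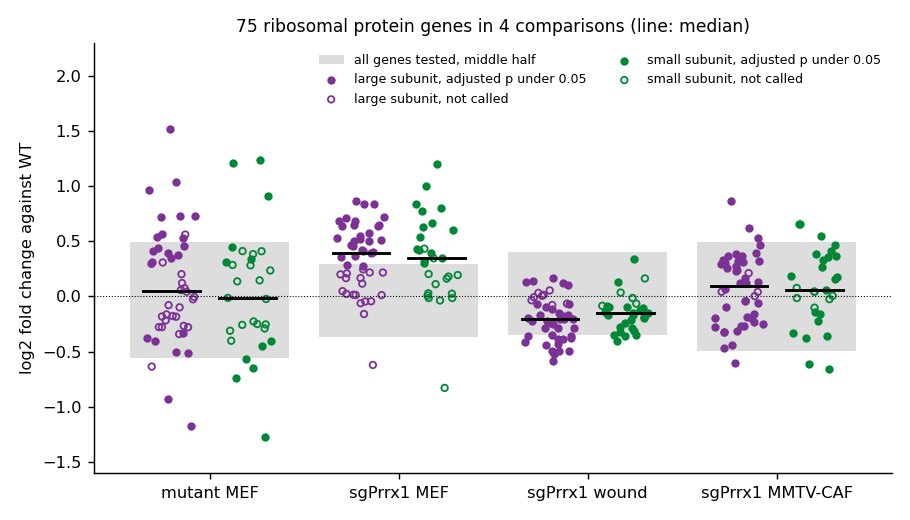
Log2 fold change against WT (y axis) of the 75 genes in 4 comparisons (x axis), large subunit in purple and small subunit in green, filled where the adjusted p was under 0.05. Black lines are the medians of each subunit and gray boxes the central range of all genes tested, from the lower to the upper quartile, and both medians lie above 0 in sgPrrx1 MEF and below 0 in sgPrrx1 wound-healing fibroblasts.

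The loss groups of MEF were also compared directly. In sgPrrx1 against mutant MEF, 31 members were higher and 4 lower, where 27.8% of all genes tested were higher and 28.4% lower. In CPM, 27 members were higher in every sgPrrx1 culture and 4 lower, where 27% of all genes tested were so higher and 36.8% lower. Rpl31 was at 2396, 2321 and 2034 CPM in sgPrrx1 MEF, against 569 to 768 CPM in mutant MEF (1.81 ± 0.16, adjusted p = 0.000147, edgeR). Rps6 was at 1285, 1222 and 1069 CPM in sgPrrx1 and 699 to 767 CPM in mutant MEF (0.82 ± 0.11, adjusted p = 0.00113). Rpl17, at the exit tunnel, was at 845, 852 and 871 CPM in sgPrrx1 and 456, 488 and 461 CPM in mutant MEF (0.97 ± 0.07, adjusted p = 4.48e-05). Rpl34 was lower in sgPrrx1 than in mutant MEF (-1.11 ± 0.12, adjusted p = 0.00031). Without culture 2 of either group 20 members were higher and 2 lower, so these counts depended on that culture.

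Cultures of one MEF group did not carry the same balance of ribosomal protein mRNAs. In mutant MEF, 21 members had a highest culture more than 1.5 times the lowest, against 11 in sgPrrx1 MEF, 7 in WT MEF and 0 in each group of wound-healing fibroblasts and MMTV-CAF. The share of all genes with such a span was not counted. Over 11987 genes, deviations from the group mean ran opposite between mutant and sgPrrx1 MEF, with a correlation of -0.563 for cultures 1 and for cultures 3. The shift between cultures was therefore not particular to the members. Of the 21, 12 were highest in culture 3 and lowest in culture 1, and 9 were highest in culture 1 and lowest in culture 3. Rplp2 was at 812, 1145 and 1662 CPM in the mutant cultures and 1460, 1431 and 827 CPM in the sgPrrx1 cultures. Rps12 was at 1430, 1956 and 2608 CPM in the mutant cultures and 2793, 2438 and 1714 CPM in the sgPrrx1 cultures. Both stood high in mutant culture 3 and in sgPrrx1 cultures 1 and 2. Rps25 was at 387.5, 219 and 150.4 CPM in the mutant and 129, 163 and 242 CPM in the sgPrrx1 cultures. Rpl35, at the exit tunnel and also named after its values were seen, was at 348, 195 and 144 CPM in the mutant and 190, 246 and 337 CPM in the sgPrrx1 cultures, the reverse order of Rplp2 and Rps12.

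The same split held for each member that passed 1.5-fold in both loss groups of MEF. Rpl26, Rpl37, Rplp1, Rplp2, Rps12 and Rps28 were highest in mutant culture 3 and sgPrrx1 culture 1, and Rpl29, Rpl35, Rps25 and Rps27l were highest in mutant culture 1 and sgPrrx1 culture 3. None of these 10 was highest in culture 1 of both groups or in culture 3 of both groups. These lists were read from the values and carry no test, and a reversal between these cultures was also seen over 11987 genes. The GC content of coding sequences moved with this weakly: over 74 members, Spearman's rho of GC with the deviation from the group mean was -0.27 in mutant culture 1, 0.26 in mutant culture 3, 0.24 in sgPrrx1 culture 1 and -0.21 in sgPrrx1 culture 3. These points share libraries and depth, and the part of GC in the split was not tested. Numbers of cultures only name them.

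**Figure D3:**
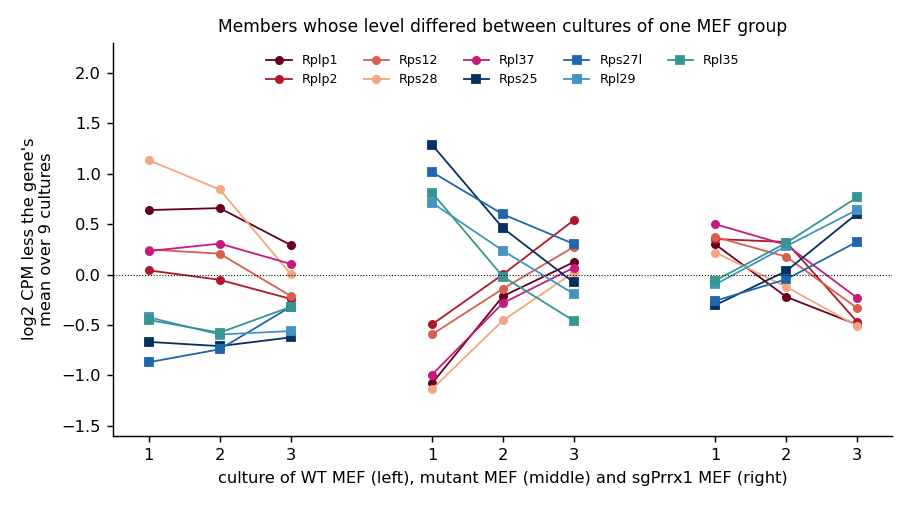
Log2 CPM of 9 of these 10 genes (all but Rpl26) less each gene's mean over 9 MEF cultures (y axis) in cultures 1 to 3 of WT, mutant and sgPrrx1 MEF (x axis). Circles mark genes high in mutant culture 3 and squares genes high in mutant culture 1, lines only join the points of a gene, and the 2 sets change places between the mutant and sgPrrx1 cultures.

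In sgPrrx1 wound-healing fibroblasts most ribosomal protein genes fell by a small amount. Against WT, 55 members were lower and 7 higher, where 39.3% of all genes tested were lower and 38.3% higher. The members that were lower make 73.3% of the 75, and the mean log2 fold change was -0.18, a fold of 0.883. Of 105 other genes at or above the members' lower-quartile level, 77 (73.3%) were also lower, with a median of -0.30, so the share was that of other highly read genes. No member changed 2-fold. Scaling mattered, since scaling to library totals alone moved the median of all genes by 0.12 and gave a mean of -0.0641, with 37 members lower and 16 higher (30.2% of the calls higher, against 11.3%). Under each of 5 scalings, 37 members were lower and 6 higher. In CPM, 33 members were lower in every sgPrrx1 culture than in every WT culture and 15 were higher, where 31.7% of all genes tested were so lower and 47.9% higher.

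Rpl7a, a large-subunit protein, was at 2510, 2530 and 2470 CPM in WT and 1787, 1825 and 1795 CPM in sgPrrx1 wound-healing fibroblasts (-0.59 ± 0.02, adjusted p = 5.8e-09, edgeR). Rpl19, at the exit tunnel, was at 2527, 2551 and 2457 CPM in WT and 1880, 1915 and 1892 CPM in sgPrrx1 (-0.52 ± 0.02, adjusted p = 2.91e-08). Rpl7, which helps to place the 5S rRNA, was at 1472, 1506 and 1489 CPM in WT and 1143, 1142 and 1142 CPM in sgPrrx1 (-0.50 ± 0.01, adjusted p = 7.53e-09). The cultures of a group lay close together, so that falls of under 1.5-fold passed the test. All 8 members at the exit tunnel were lower, among them Rpl4, Rpl23a, Rpl26 and Rpl39, although Rpl17 (-0.11 ± 0.04, adjusted p = 0.0199) went to 0.0048 under library totals and missed the threshold without WT culture 1 or 2 or sgPrrx1 culture 1 (adjusted p = 0.0576, 0.0525 and 0.0682). Rpl26 (-0.35 ± 0.11, adjusted p = 0.0165, edgeR) missed it under library totals (0.0668) and with all 21 cultures in one model (0.167). Of 14 proteins of the 40S body, 12 (85.7%) were lower, beside 73.3% of all members and 39.3% of all genes tested.

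The 7 genes higher in sgPrrx1 wound-healing fibroblasts were Rps12, Rplp2, Rpl37, Rpl24, Rps20, Rpl22 and Rpl9, the last 4 named here after their values were seen. Rps12 of the 40S head was at 2994, 3143 and 2683 CPM in WT and 4004, 3985 and 4090 CPM in sgPrrx1 (0.34 ± 0.05, adjusted p = 0.000335, edgeR). Rplp2 was at 846.5, 879 and 729 CPM in WT and 984, 962 and 1037 CPM in sgPrrx1 (0.17 ± 0.07, adjusted p = 0.046). Rpl37, a large-subunit protein, was at 727, 758 and 673 CPM in WT and 843.5, 877 and 856 CPM in sgPrrx1 (0.14 ± 0.04, adjusted p = 0.0143). In none of these did the groups overlap. Rplp2 missed the threshold without WT culture 1 or 3 or without any 1 of the sgPrrx1 cultures (adjusted p from 0.0546 to 0.145). It also missed it under upper-quartile scaling and without a filter on low counts (0.084 and 0.0662, edgeR). The same held with all 21 cultures in one model (0.545, edgeR) and by DESeq2 (0.0894). Rps6 (-0.10), Rpl13a (-0.07) and Rps27l (-0.09) passed the test as lower and turned to 0.02, 0.05 and 0.02 under library totals. Rpl5 (0.01, and -0.02 under upper-quartile scaling), and Rpl11 (-0.03), Rps19 (-0.01) and Rplp1 (-0.08), which turned to 0.08, 0.10 and 0.04 under library totals, did not pass it.

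In sgPrrx1 MMTV-CAF the genes split. Against WT, 37 members were higher and 26 lower, where 41.2% of all genes tested were higher and 41.9% lower. The mean log2 fold change was 0.07, with single genes between -0.66 and 0.87, and no member changed 2-fold. Among 345 other genes at or above the members' lower-quartile level, 95 were higher and 227 lower, with a median of -0.32. Under library totals, which moved the median of all genes by 0.13, the mean was 0.203, and 49 members were higher and 17 lower (74.2% of the calls higher, against 58.7%). In CPM, 49 members were higher in every sgPrrx1 culture than in every WT culture and 17 were lower, where 49.9% of all genes tested were so higher and 35.6% lower.

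Rpl35a was at 71.2, 76.8 and 73.9 CPM in WT MMTV-CAF and 143, 148 and 152 CPM in sgPrrx1 (0.87 ± 0.03, adjusted p = 6.71e-08, edgeR). Rps3, at the mRNA entry of the 40S subunit, was at 624, 616.5 and 605.5 CPM in WT and 1050, 1056 and 1088 CPM in sgPrrx1 (0.66 ± 0.02, adjusted p = 1.91e-08). Rps15 of the 40S head was at 496, 508 and 488 CPM in WT and 868.5, 848 and 855 CPM in sgPrrx1 (0.65 ± 0.02, adjusted p = 1.43e-08). Each of these rises separated the groups by far more than the spread within them. Rps23, at the decoding center, was at 525, 519.6 and 499 CPM in WT and 353.5, 353 and 365 CPM in sgPrrx1 (-0.66 ± 0.02, adjusted p = 6.43e-08). Rps26, at the mRNA exit, was at 421, 431 and 441 CPM in WT and 321, 314 and 289.8 CPM in sgPrrx1 (-0.62 ± 0.04, adjusted p = 1.55e-06). Rpl26, which lies at the exit tunnel and was close to the count minimum, was at 1.53, 1.48 and 1.65 CPM in WT and 1.06, 1.25 and 1.05 CPM in sgPrrx1 (-0.60 ± 0.13, adjusted p = 0.0034). Its lowest culture held 110 counts, and its standard error was the largest of the 6.

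By role, the stalk proteins passed the test as lower in MMTV-CAF and the partners of 5S rRNA as higher, but of the stalk only Rplp1 kept its call under all 5 scalings. Rplp1 was at 1384, 1308 and 1424 CPM in WT and 1184, 1227 and 1224 CPM in sgPrrx1 MMTV-CAF (-0.31 ± 0.03, adjusted p = 3.38e-05, edgeR). Rplp2 changed by -0.23 ± 0.06 (adjusted p = 0.00645), or -0.10 under library totals (0.151), and its groups overlapped, with 509, 555.5 and 474 CPM in WT and 508, 462 and 464.5 CPM in sgPrrx1, while the change of Rplp0, -0.06 ± 0.02 (adjusted p = 0.0154), turned to 0.07 under library totals and missed the threshold without sgPrrx1 culture 2 (adjusted p = 0.069). Rpl5 was at 862, 832 and 869 CPM in WT and 1111, 1117 and 1130 CPM in sgPrrx1 (0.26 ± 0.02, adjusted p = 5.49e-06). Rpl11 was at 323.5, 345 and 307 CPM in WT and 442, 424 and 429 CPM in sgPrrx1 (0.28 ± 0.04, adjusted p = 0.000278). Rps6 (0.26), Rps19 (0.33), Rpl13a (0.36) and Rps27l (0.41) were also higher. Rps19 is known for its mutation in Diamond-Blackfan anemia, and Rpl13a, outside the ribosome, for a complex that blocks translation after interferon. Of the 14 proteins of the 40S head, 7 were higher and 3 lower (50% and 21.4%), and of the 14 of the 40S body 6 were higher and 5 lower (42.9% and 35.7%). Of all genes tested, 41.2% were higher and 41.9% lower, so no result by role is read from these counts.

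Few genes moved one way in all sgPrrx1 fibroblasts. Rpl22, an RNA-binding protein of the large subunit, was the only member higher in all 3 sgPrrx1 comparisons, as were 3.25% of all genes, by 0.39 ± 0.12 in MEF, 0.29 ± 0.02 in MMTV-CAF and 0.12 ± 0.02 in wound-healing fibroblasts (adjusted p = 0.0383, 3.98e-06 and 0.000162, edgeR), and was at -0.18 ± 0.14 in mutant MEF. It was named after its values were seen. In MEF its groups overlapped, and the call was lost under upper-quartile scaling (adjusted p = 0.0505) and without WT culture 2 or 3 or sgPrrx1 culture 2 or 3 (0.123, 0.0858, 0.105 and 0.112, edgeR). With all 21 cultures in one model, the call in wound-healing fibroblasts was lost (0.12, adjusted p = 0.267, edgeR). Those in MEF and MMTV-CAF stayed in that model (adjusted p = 0.00145 and 0.00699). Rps15a and Rps21 of the 40S body passed the test in none of the 4. Between wound-healing fibroblasts and MMTV-CAF, which share no cultures, 31 members were lower in the former and higher in the latter, 18 were lower in both, 3 were higher in the former and lower in the latter, and 2 were higher in both. The shares of all genes tested in both were 19%, 16.1%, 18.3% and 13.6%, in the same order. The 19 members that were higher in sgPrrx1 MEF, lower in wound-healing fibroblasts and higher in MMTV-CAF, a pattern of 5.54% of all genes, included Rpl7a, Rps3, Rpl27, Rps9, Rpl14, Rps25, Rps7 and Rpl31. Rps9 missed the threshold in MMTV-CAF (0.06 ± 0.02, adjusted p = 0.0213) without WT culture 3 or sgPrrx1 culture 1 (0.0795 and 0.0564), and Rpl7a did in MEF (0.36 ± 0.11, adjusted p = 0.0328) without culture 1 or 2 of either group (0.07 to 0.0804).

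**Figure D4:**
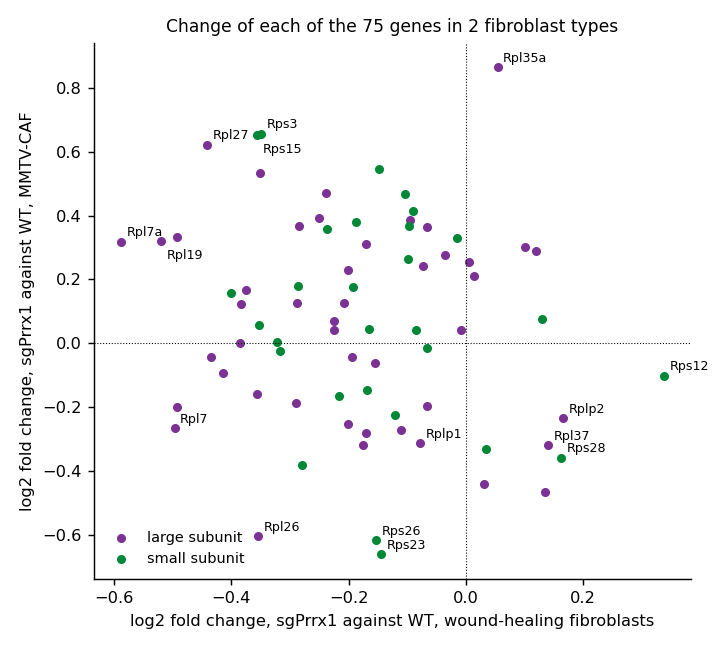
Log2 fold change of each of the 75 genes in sgPrrx1 wound-healing fibroblasts (x axis) against that in sgPrrx1 MMTV-CAF (y axis), each relative to its own WT cultures, large subunit in purple and small subunit in green. Most points lie left of 0, and they spread on both sides of 0 along the y axis.

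The difference between fibroblast types was tested directly, as the interaction of type and sgPrrx1 over 18 cultures. Between wound-healing fibroblasts and MEF the change was lower in the former for 58 members and higher for 1 (Rps28), where 31.5% of all genes were lower and 28.8% higher. Between MMTV-CAF and MEF it was lower in MMTV-CAF for 34 and higher for 8, where 30.5% of all genes were lower and 30.2% higher. Between MMTV-CAF and wound-healing fibroblasts it was higher in MMTV-CAF for 45 and lower for 5, where 34.8% of all genes were higher and 31.7% lower. For a larger share of members than of all genes, the change in wound-healing fibroblasts was below that in MEF and below that in MMTV-CAF. Both differences use the same wound-healing cultures, so their common direction is partly built in. Other genes of the members' level were not set beside them. Leaving out culture 2 of every group gave 45 and 0, 22 and 2, and 30 and 3 members, in the order lower and higher, lower and higher, and higher and lower.

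Rpl7 gave the smallest p between wound-healing fibroblasts and MEF, with a difference of the log2 changes of -1.08 ± 0.05 (adjusted p = 6.38e-11, edgeR interaction). In MEF it rose from 829, 760.5 and 793 CPM to 1114, 1151 and 1183 CPM, opposite to its fall in wound-healing fibroblasts. In MMTV-CAF it went from 838, 825 and 838 CPM to 762, 767 and 754 CPM, a difference from MEF of -0.80 ± 0.05 (adjusted p = 1.21e-09). Rps9, of the 40S body, differed between wound-healing fibroblasts and MEF by -1.02 ± 0.06 (adjusted p = 2.28e-09) and Rpl14, a large-subunit protein, by -0.79 ± 0.05 (adjusted p = 2.91e-09). Both were higher in sgPrrx1 MEF and lower in sgPrrx1 wound-healing fibroblasts. Rps23 differed between MMTV-CAF and MEF by -1.03 ± 0.06 (adjusted p = 9.77e-10) and Rpl17 by -0.89 ± 0.06 (adjusted p = 2.32e-09).

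Between MMTV-CAF and wound-healing fibroblasts the smallest p values were those of Rpl27, Rps3 and Rpl23a. Rpl27, a large-subunit protein, was at 310, 308 and 303 CPM in WT and 517, 520.1 and 519 CPM in sgPrrx1 MMTV-CAF, and at 1077, 1090 and 1080 CPM in WT and 857, 865 and 865 CPM in sgPrrx1 wound-healing fibroblasts. The difference of its changes was 1.12 ± 0.08 (adjusted p = 2.34e-09, edgeR interaction). That of Rps3 was 1.06 ± 0.08 (adjusted p = 4.3e-09). Rpl23a, where the signal recognition particle docks at the exit tunnel, differed by 0.94 ± 0.07 (adjusted p = 1.16e-08), from 0.53 in MMTV-CAF and -0.35 in wound-healing fibroblasts. In each of these genes WT was higher in wound-healing fibroblasts than in MMTV-CAF, and the sgPrrx1 levels lay closer together. The first held for 74 of the 75 members, and the genes were picked by their interaction. The closer sgPrrx1 levels are therefore largely built in.

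The ubiquitously expressed Rps27 missed the count minimum in WT MEF culture 1, where it held 79 counts and Rps27rt 11230. Why most counts of a culture stood on a single gene of the pair was not tested. Rps27 held 99.2% to 99.5% of the summed counts of the pair in 6 cultures and 0.699% to 2.12% in the other 15. Those with mostly Rps27 were WT MEF culture 2, all 3 sgPrrx1 MEF cultures, WT wound-healing culture 2 and WT MMTV-CAF culture 1. In WT MEF, for example, Rps27 was at 79, 9908 and 127 counts and Rps27rt at 11230, 56 and 10303 counts. Within each WT group the sums of the pair varied far less than either gene alone, and the sums were at 118 to 153 CPM in WT MEF, 133 to 193 CPM in mutant MEF, 109 to 130 CPM in sgPrrx1 MEF, 456 to 490 CPM in WT wound-healing fibroblasts and 175 to 193 CPM in WT MMTV-CAF. Taken alone, Rps27 passed the test as lower in wound-healing fibroblasts (-5.06 ± 1.67, adjusted p = 0.0216, edgeR) and MMTV-CAF (-4.12 ± 1.57, adjusted p = 0.0389), and Rps27rt as lower in sgPrrx1 MEF (-6.65 ± 1.6, adjusted p = 0.0149).

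With the counts of both summed before the fit, an alternative added after the data were seen, the pair passed the test as lower in wound-healing fibroblasts and higher in MMTV-CAF, and did not pass it in MEF. The sum of Rps27 and Rps27rt changed by 0.11 ± 0.17 in mutant MEF and -0.14 ± 0.13 in sgPrrx1 MEF (adjusted p = 0.598 and 0.415). It changed by -0.22 ± 0.03 in wound-healing fibroblasts (adjusted p = 0.000172) and by 0.51 ± 0.03 in MMTV-CAF, where it went from 175, 193 and 181 CPM to 287.5, 284 and 287 CPM (adjusted p = 1.68e-06). Rpl34 has a listed copy, Rpl34-ps1, with 2992 to 89469 counts, beside 747 to 7221 of Rpl34 itself. Summed with it, Rpl34 changed by 1.84 ± 0.07 in mutant MEF, 0.07 ± 0.09 in sgPrrx1 MEF, 0.55 ± 0.03 in MMTV-CAF and -0.24 ± 0.02 in wound-healing fibroblasts. Its rise in mutant MEF was as large with the copy, that in sgPrrx1 MEF (0.41 alone, adjusted p = 0.0296, and 0.0621 to 0.101 without WT culture 1 or 2 or sgPrrx1 culture 1 or 2) was not past the threshold, and in wound-healing fibroblasts it was lower (0.01 alone). Copies listed beside Rpl14, Rpl31, Rplp2, Rps15a and Rps19 held at most 991 counts. Reads of members with copies that the tables do not list may have been dropped or split, which was not tested.

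**Figure D5:**
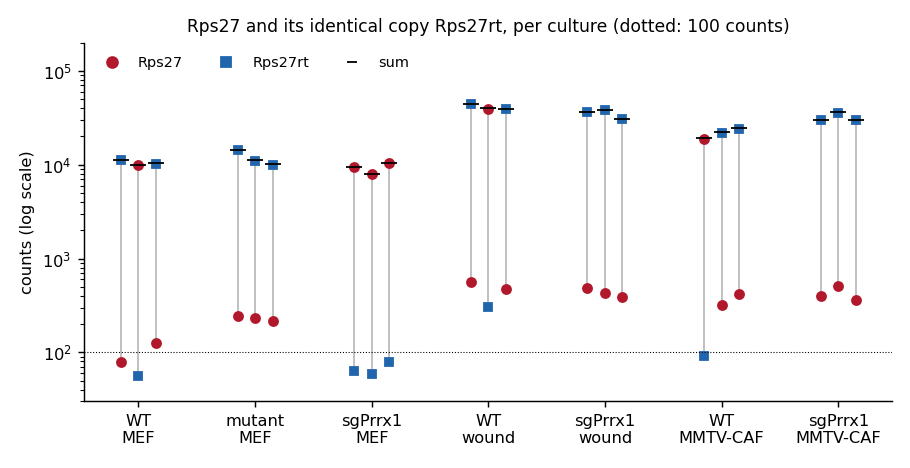
Counts of Rps27 (circles), Rps27rt (squares) and their sum (short black lines) on a log axis in each culture of the 7 groups. In each WT group the larger of the pair changes between cultures, while the sums stay closer together. In each loss group the same gene is the larger in every culture.

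Of the other genes below the minimum, Rpl10l, Rpl3l and Rpl39l reached at most 2, 6 and 4 counts and Rpl32l ranged from 19 to 84. Rps4l, which RefSeq lists as a transcribed pseudogene, ranged from 0 to 13648 counts. It was at 185, 176 and 133 CPM in WT MEF, 5.27, 7.71 and 9.74 CPM in mutant MEF and 134, 106 and 85.0 CPM in sgPrrx1 MEF. In wound-healing fibroblasts it was at 40.9, 40.6 and 41.5 CPM in WT and 8.20, 7.76 and 8.02 CPM in sgPrrx1, and in MMTV-CAF of the FVB/NJ strain it held 2 counts in 1 WT culture and 0 in the other 5 cultures. The log2 fold changes were -4.53 ± 0.29 in mutant MEF, -0.58 ± 0.21 in sgPrrx1 MEF and -2.47 ± 0.03 in wound-healing fibroblasts (adjusted p = 2.41e-05, 0.0604 and 1.12e-10, edgeR). Just inside the minimum, Rpl26 held 110 to 783 counts, Rpl34 747 to 7221 and Rps27l 3029 to 38522. Just outside it stood Rps27 with 79 to 39615 counts.

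The rest of the ribosome pathway was read from lists. Of 76 mitochondrial ribosomal protein genes, which build a separate ribosome, 43 were higher and 1 lower in sgPrrx1 MEF, 55 lower and 6 higher in wound-healing fibroblasts, 45 higher and 13 lower in MMTV-CAF, and 36 higher and 9 lower in mutant MEF. Their medians were 0.32, -0.24, 0.16 and 0.31, beside medians of all genes within 0.01 of 0. Of all genes tested, 20.3% were higher and 22.8% lower in sgPrrx1 MEF, and 38.3% and 39.3% in wound-healing fibroblasts. In MMTV-CAF 41.2% were higher and 41.9% lower, and in mutant MEF 29.4% and 30.5%. These shares are the background for each list below. Of 103 ribosome biogenesis factors, 64 were higher and 5 lower in mutant MEF and 78 higher and 0 lower in sgPrrx1 MEF (1 lower by DESeq2, and 0 at an unadjusted p under 0.05 by edgeR). Of 102 tested in each of the other types, 43 were higher and 43 lower in wound-healing fibroblasts and 54 higher and 41 lower in MMTV-CAF. The 42.2% each way in wound-healing fibroblasts was near the background. Rsl1d1, a nucleolar factor, changed by 1.38 in mutant MEF, Ebna1bp2 by 1.01 in sgPrrx1 MEF, the large-subunit remodeler Mdn1 by 0.92 in wound-healing fibroblasts, and the nucleolar GTPase Gnl2, from 33.6 to 103 CPM, by 1.49 in MMTV-CAF (adjusted p = 0.0022, 0.00177, 2.14e-08 and 6.57e-10, edgeR). The processing factor Rrp1 changed by -1.01 in mutant MEF, Nsa2 by -0.59 in wound-healing fibroblasts and Tcof1, which supports rRNA synthesis, by -0.96 in MMTV-CAF.

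RNA polymerase I and its factors moved less evenly. Of 19 tested in MEF, 9 were higher and 2 lower in mutant MEF and 7 higher in sgPrrx1 MEF, where 0 were lower by edgeR, also at an unadjusted p under 0.05, and 0 by DESeq2. Of 18 tested in the other types 6 were higher and 5 lower in wound-healing fibroblasts and 10 higher and 6 lower in MMTV-CAF. In wound-healing fibroblasts that is 33.3% higher and 27.8% lower, where 38.3% and 39.3% of all genes tested were. The subunits Polr2k (1.42 in mutant MEF), Polr1e (0.90 in sgPrrx1 MEF) and Twistnb (0.74 in MMTV-CAF) and the factor Taf1c (0.88 in wound-healing fibroblasts) had the largest rises. Znrd1 (-0.67 in mutant MEF), Polr2l (-0.80 in MMTV-CAF) and Taf1b (-0.37 in wound-healing fibroblasts) had the largest falls. Of 39 translation factors, 13 were higher and 3 lower in mutant MEF, 21 higher and 1 lower in sgPrrx1 MEF, 8 higher and 26 lower in wound-healing fibroblasts and 10 higher and 26 lower in MMTV-CAF. Of the listed factors that passed the test, Eif5b (1.10) rose most and Eif3f (-0.73) fell most in mutant MEF. In wound-healing fibroblasts these were Eif3a (0.56) and Eif2s2 (-0.70). The largest falls were those of Eif4a2 (-0.36) in sgPrrx1 MEF and Eif3c (-0.87) in MMTV-CAF. All of these are initiation factors. Hnrnpa1, also on this list and highest in sgPrrx1 MEF (1.86) and MMTV-CAF (2.54), had standard errors of 0.62 and 0.79. Its change in wound-healing fibroblasts, -0.90 ± 1.04, was not past the threshold.

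Regulators of ribosome production showed no common direction, with 6 higher and 9 lower of 29 in mutant MEF, 7 and 5 in sgPrrx1 MEF, 16 and 8 in wound-healing fibroblasts and 11 and 15 in MMTV-CAF. In mutant MEF 20.7% were higher and 31.0% lower, against 29.4% and 30.5% of all genes tested. The shares were 24.1% and 17.2% in sgPrrx1 MEF, against 20.3% and 22.8%. They were 55.2% and 27.6% in wound-healing fibroblasts, against 38.3% and 39.3%, and 37.9% and 51.7% in MMTV-CAF, against 41.2% and 41.9%. Myc, which drives transcription of ribosomal protein and rRNA genes, was higher in all 4 comparisons. It went from 57.6 to 89.7 CPM in mutant MEF and to 106 CPM in sgPrrx1 MEF, from 68.3 to 104 CPM in wound-healing fibroblasts and from 48.4 to 101.1 CPM in MMTV-CAF (log2 changes of 0.56 ± 0.12, 0.89 ± 0.12, 0.49 ± 0.02 and 0.93 ± 0.02). It was named after its values were seen, since the rule for named genes takes only the extremes of a list. Both MEF comparisons share their WT cultures, and the share of all genes higher in all 4 was not counted. The part of Myc in the changes of the members was not tested. Mycn went from 297 counts over the WT MEF cultures to 0 in mutant MEF, from 10.1 to 5.67 CPM in wound-healing fibroblasts (-0.95), from 1.25 to 2.25 CPM in sgPrrx1 MEF (0.86) and from 0.935 to 14.3 CPM in MMTV-CAF (3.80 ± 0.06, adjusted p = 7.92e-10, edgeR). The p53 target Cdkn1a rose from 241 to 588 CPM in wound-healing fibroblasts (1.18 ± 0.02). Mycl changed by -4.24 in mutant MEF, -1.49 in sgPrrx1 MEF and -1.98 in MMTV-CAF, and Tbpl1 rose by 0.78 in mutant and 1.06 in sgPrrx1 MEF.

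Ribosomal proteins outside the symbol pattern added 9 tested genes. Rpl22l1, the paralog of Rpl22, changed from 2.02 to 19.1 CPM in mutant MEF (3.15 ± 0.41, adjusted p = 0.000661, edgeR) and to 4.71 CPM in sgPrrx1 MEF (1.23 ± 0.24, adjusted p = 0.00619), and from 56.6 to 35.2 CPM in wound-healing fibroblasts (-0.80 ± 0.05, adjusted p = 1.06e-06). Rack1, a scaffold on the 40S head, changed by -0.61 in wound-healing fibroblasts, -0.56 in mutant MEF and -0.31 in MMTV-CAF, and Rps3a1 of the 40S body by 0.45 in MMTV-CAF. Among the mitochondrial proteins, Mrps6 went from 198 to 63.3 CPM in MMTV-CAF (-1.78 ± 0.02) and Mrpl50 from 22.5 to 48.5 CPM (0.97 ± 0.03). Mrpl34 went from 5.48 to 25.5 CPM in mutant MEF (2.13 ± 0.29) while Mrpl33 went from 25.9 to 13.1 CPM (-1.07 ± 0.11). Mrpl15 rose by 0.96 and Mrps12 fell by 0.43 on the log2 scale in sgPrrx1 MEF, and Mrps22 fell by 0.69 and Mrpl39 rose by 0.15 in wound-healing fibroblasts.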

How the data were processed

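RNA of 21 mouse fibroblast cultures in 7 groups was sequenced from paired-end TruSeq RNA libraries. The authors trimmed reads with Trimmomatic, aligned them to mm10 with STAR and deposited raw HTSeq counts per gene in 3 tables, 1 per cell type. The study's methods name batch correction by ComBat-seq after the human data, and whether the deposited mouse counts passed through it is unclear; they are whole numbers. The table of wound-healing fibroblasts was assigned to its cell type by elimination. No column was left out (0 not used). Libraries held 69588655 to 134790440 counts, and cultures of a group differed beyond sampling noise in every pair.

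Members and gene lists were chosen with earlier results of these data known. Each comparison of 6 cultures was fitted over all genes with edgeR 4.0.16 (R 4.3.3, filterByExpr, TMM scaling, quasi-likelihood test, Benjamini-Hochberg threshold of 0.05), and differences between types as an interaction over 18 cultures. Genes were tested on the counts, while CPM is per 1000000 counts of a library. Code was tested on simulated data. Named members were the 3 with the largest change in each direction per comparison with WT, the 3 with the smallest p per interaction, set examples of each role and genes below the count minimum, and named list genes the extremes of each list; others are said to be named after their values were seen. Marker lists covered fibroblast, epithelial, immune and endothelial cells. Alternatives were RLE, upper-quartile and library-total scaling, TMM without the members, other filters on low counts, a 2-fold minimum, 1 model over all cultures, DESeq2 1.42.0, a replicate block and leaving out each culture. Summing copies was added after the data were seen. Gene positions and start sites are from RefSeq (GRCm38.p6) and coding sequences from Gencode M1 (NCBIM37).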

Additional observations from a re-analysis of the deposited data

Results flagged for a closer look

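The sgPrrx1 change differed between fibroblast types by the edgeR interaction test, and these counts and their leading genes are listed for that reason. Against MEF, the change in wound-healing fibroblasts was lower for 58 members and higher for 1, led by Rpl7 (-1.08), Rps9 (-1.02) and Rpl14 (-0.79). Against MEF, the change in MMTV-CAF was lower for 34 and higher for 8, led by Rps23 (-1.03), Rpl17 (-0.89) and Rpl7 (-0.80). Against wound-healing fibroblasts, the change in MMTV-CAF was higher for 45 and lower for 5, led by Rpl27 (1.12), Rps3 (1.06) and Rpl23a (0.94). Values are differences of log2 fold changes. Fibroblast type and the table in which a type was counted cannot be told apart in these differences, nor can strain in those of MMTV-CAF, and the spread of the MEF cultures was wider than that of the others.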

How the results depend on the processing

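Of 296 alternative values of counts, means and medians, 234 stayed within 1.5 times or 1 SD of the reported value, 59 moved and 3 turned; of those of named genes 1846 kept direction and side of the threshold, 83 lost the call, 47 gained it and 8 turned. The causes were not tested. Cultures with the same number did not deviate together, with correlations from -0.385 to 0.327 within the 4 comparisons with WT and -0.563, 0.151 and -0.563 between the loss groups of MEF, so the replicate block is given only here: it left 7 members lower in mutant MEF, gave 2 lower in sgPrrx1 MEF, and 2 lower and 14 higher in sgPrrx1 against mutant MEF. Under the block Rpl22 missed the threshold in sgPrrx1 MEF and Rplp2 in wound-healing fibroblasts (adjusted p = 0.0625 and 0.0709, edgeR).

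With all 21 cultures in one model, 21 members were lower in mutant MEF, 2 in sgPrrx1 MEF and 11 in MMTV-CAF (mean 0.0883), and in wound-healing fibroblasts 30 were lower and 0 higher. At a minimum of 2-fold, 2 were lower and 4 higher in mutant MEF, 1 higher in sgPrrx1 MEF, and 0 either way in wound-healing fibroblasts and MMTV-CAF. DESeq2 called 1 member lower in sgPrrx1 MEF.

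Under library totals the mean change was 0.151 in mutant MEF, -0.0641 in wound-healing fibroblasts (16 higher) and 0.203 in MMTV-CAF (17 lower), 1 member was lower in sgPrrx1 MEF, and 2 were higher in the interaction of wound-healing fibroblasts and MEF. The mean in sgPrrx1 MEF was 0.317 under upper-quartile scaling. Without the 20 largest genes, the share changed by 6.25% in MMTV-CAF and -7.00% in wound-healing fibroblasts. List medians under library totals for RNA polymerase I, biogenesis, translation factors and regulators were 0.509, 0.536, 0.301 and 0.0124 in mutant MEF, 0.124, 0.107, -0.115 and 0.274 in wound-healing fibroblasts and 0.343, 0.274, -0.105 and 0.0585 in MMTV-CAF, with mitochondrial ribosomal proteins at -0.13 and 0.292 in the last pair; of these, regulators in mutant MEF and MMTV-CAF and biogenesis in wound-healing fibroblasts changed sign. In wound-healing fibroblasts Rps27l (0.0239), Rpl17 (0.00482), Rpl11 (0.0797), Rps6 (0.016), Rps19 (0.1) and Rpl13a (0.049) turned, as did Rplp0 in MMTV-CAF (0.073), and Rpl34 in wound-healing fibroblasts with its copy (-0.237).

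Leaving out 1 culture gave 6 to 20 members lower and 14 to 25 higher in mutant MEF (mean 0.0317 to 0.0996), 0 to 2 and 32 to 45 in sgPrrx1 MEF (0.327 to 0.388), 51 to 60 and 6 to 9 in wound-healing fibroblasts (-0.209 to -0.159), 24 to 27 and 36 to 39 in MMTV-CAF (0.0571 to 0.0728), and 2 to 4 and 20 to 30 in sgPrrx1 against mutant MEF. In mutant MEF the lowest count, 6, came without WT culture 1 or 2 or mutant culture 2, and 20 without mutant culture 3. Leaving out 1 number gave 45 to 59 lower and 0 to 1 higher between wound-healing fibroblasts and MEF, 22 to 44 and 2 to 11 between MMTV-CAF and MEF, and 3 to 7 and 30 to 47 between MMTV-CAF and wound-healing fibroblasts. Precision rested on 3 cultures a group and, for Rpl26 with at least 110 counts, on depth.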
